A study of Mus musculus with 17 samples.

Results

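The nuclear receptors CAR and PXR, encoded by Nr1i3 and Nr1i2, and 8 genes of drug metabolism that they control were followed in hepatocytes edited at a β-catenin binding site or at Rosa26. The 10 genes were chosen by their place in the pathway, with earlier results of these data known. All 10 were among the 55536 genes of the count tables and the 14393 that passed the filter on low counts. The 8 target genes are Cyp2b10, Cyp2c29, Cyp2c37, Cyp2c50, Cyp2c55, Cyp3a11, Por and Ugt1a1.

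The WRE-edited hepatocytes carried SaCas9 edits at the site the labels call WRE, which β-catenin binds and which lies upstream of the imprinted DLK1/DIO3 domain. The Rosa26-edited hepatocytes carried edits at Rosa26, a locus commonly used as a neutral target. All were from C57BL/6J mice of the ApcΔHep genotype aged 3 months, in which hepatocytes lose Apc and with it the restraint on β-catenin. Both groups had carried AAV8, a vector that reaches hepatocytes, for 1 month and had received tamoxifen (2 mg, 7 days), and the hepatocytes were freed by collagenase perfusion. There were 6 WRE-edited and 5 Rosa26-edited RNA-seq libraries. Run r770 held WRE-edited 1 to 3 and Rosa26-edited 1 to 3, run r595 held WRE-edited 6 and Rosa26-edited 4 and 5, and run r711 held WRE-edited 4 and 5 with no control. The labels name neither the driver of the inducible deletion nor the promoter of SaCas9, and do not say that each library is a separate animal, so a p-value measures only how these libraries spread, which may be technical.

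CAR and PXR are receptors of the hepatocyte that sense drugs, steroids and bile acids. Bound to their partner RXR, they switch on cytochrome P450 enzymes, the reductase that feeds electrons to those enzymes, and enzymes that attach glucuronic acid to the products. CAR is held in the cytoplasm and enters the nucleus on exposure to inducers such as phenobarbital, while PXR is activated by binding its ligands. In the mouse liver CAR and several of its targets are most abundant around the central vein, where β-catenin signalling is active, and non-coding RNAs of the DLK1/DIO3 locus have been described as responding to phenobarbital.

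The promoters of Cyp3a11, Cyp2c29, Cyp2c55 and Cyp2b10 are shown, the 4 genes of the pairs whose Pearson correlations across libraries passed a test given with the correlations, so that their letters can be set beside the values. They come from RefSeq (GRCm38.p6), 5′ to 3′, in a table of the 250 bases before 1 start per gene, in which all 10 genes matched. For Cyp2c29 and Cyp2c55 that start lies inside the outer bounds of the gene, and the 41 and 79 bases inside those bounds are not printed. Capitals mark letters that match a receptor, HNF4 or TCF motif. Cyp3a11 is at chr5:145879855-145880104 on the minus strand, Cyp2c29 at chr19:39286835-39287043, Cyp2c55 at chr19:39006769-39006939 and Cyp2b10 at chr7:25897408-25897657, the last 3 on the plus strand.
Cyp3a11: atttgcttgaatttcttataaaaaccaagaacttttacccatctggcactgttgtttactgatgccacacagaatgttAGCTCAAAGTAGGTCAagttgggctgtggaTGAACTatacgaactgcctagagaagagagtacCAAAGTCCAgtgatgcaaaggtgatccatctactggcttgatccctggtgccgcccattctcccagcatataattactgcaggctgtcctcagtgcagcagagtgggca
Cyp2c29: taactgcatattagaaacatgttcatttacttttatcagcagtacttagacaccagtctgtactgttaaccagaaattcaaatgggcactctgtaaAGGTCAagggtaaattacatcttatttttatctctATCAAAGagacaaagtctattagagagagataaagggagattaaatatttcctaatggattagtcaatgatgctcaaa
Cyp2c55: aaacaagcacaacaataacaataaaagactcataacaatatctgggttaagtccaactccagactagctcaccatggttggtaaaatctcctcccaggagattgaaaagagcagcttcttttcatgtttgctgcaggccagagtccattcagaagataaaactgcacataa
Cyp2b10: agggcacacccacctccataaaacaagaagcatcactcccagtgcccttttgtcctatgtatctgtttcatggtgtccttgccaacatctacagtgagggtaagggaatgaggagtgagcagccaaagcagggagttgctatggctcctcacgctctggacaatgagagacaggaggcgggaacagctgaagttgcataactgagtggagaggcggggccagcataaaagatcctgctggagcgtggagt

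The motifs were searched on both strands of the window from 250 bases before to 50 bases after each start of the table, and positions are counted from that start. The starts of Nr1i3, Nr1i2 and Por in the table also lie inside the outer bounds of their genes. The Cyp3a11 promoter held AGCTCAAAGTAGGTCA at position -172, a match to AGNTCANNNNAGNTCA, the direct repeat with a spacer of 4 bases (DR4) that CAR and PXR can bind. DR4 occurred in 0.133% of 27025 mouse promoters and in 1 of the 10 genes. AGGTCA, the single site that makes up such repeats and overlaps the DR4 match in Cyp3a11, occurred in 16.0% of all promoters and stood in Cyp2c29 at -154 as well. Its variant AGTTCA occurred in 3790 of the 27025 promoters and was matched by Cyp3a11 at -142 as TGAACT on the other strand, by Cyp2c50 and by Ugt1a1. Cyp3a11 also held CAAAGTCCA, an HNF4 motif found in 0.477% of all promoters, at -109. Cyp2c29 held ATCAAAG, the reverse complement of the TCF motif CTTTGAT found in 3.72% of all promoters, at -119. AGNTCANNNAGNTCA (DR3, 0.0740% of all promoters), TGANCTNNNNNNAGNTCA (ER6, 0.0370%) and TGANCTNNNNNNNNAGNTCA (ER8, 0.0592%) had no match in any of the 10. TATAAA, a core promoter motif present in 14.2% of all promoters and left in lower case above, stood in Cyp2c29, Cyp2c55 and Cyp3a11, in the first 2 within the bases not printed. The Cyp2c55 and Cyp2b10 windows held no receptor, HNF4 or TCF match, and the phenobarbital-responsive enhancer known for Cyp2b10 lies farther upstream.

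The libraries held 20727036 to 38935135 expected counts, of which the 10 genes took 0.237% to 0.821%. Mitochondrial ribosomal RNA took 2.29% to 3.00% of counts in run r595 and 19.0% to 29.1% elsewhere. Every pair of replicates differed far beyond counting noise. As a check of the edit, Rian, a non-coding RNA of DLK1/DIO3, had a log2 fold change of -2.30. WRE-edited 3 and 6 stood apart in genes of the Y chromosome, with Ddx3y at 22.9 and 31.8 CPM, against 69.8 to 109 CPM in the other 9 libraries. Xist was at or below 0.285 CPM everywhere. The same 2 libraries had the lowest summed level of 9 stellate cell and fibroblast markers, 44.0 and 44.9 CPM. Rosa26-edited 1, the highest control of r770 for Cyp3a11, Cyp2c29 and Cyp2c55, stood apart in the summed level of 10 early response genes at 808 CPM, against 133 to 321 CPM in the other 10 libraries. Its part in those values was not tested. The library names of WRE-edited 4 and WRE-edited 6 share a number, so these may not be independent. In these bulk samples fewer cells of a type and less RNA per cell cannot be told apart.

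Per transcript length, Cyp3a11 was the most abundant of the 10 genes. It encodes a major mouse CYP3A enzyme, which oxidises a broad range of drugs, and had a median over the 11 libraries of 651 TPM (lowest 114, highest 1799). Cyp2c29 and Cyp2c50, P450 enzymes of the CYP2C family, followed at medians of 263 and 261 TPM, and their ranges of 190 to 734 and 177 to 388 TPM overlapped. Ugt1a1, which conjugates bilirubin, had a median of 156 TPM, Por, the P450 reductase, 72.7 TPM, and Cyp2c37 60.2 TPM. The receptors were lower, Nr1i3 at 27.6 TPM and Nr1i2 at 14.4 TPM, with Cyp2c55 between them at 24.4 TPM. Cyp2b10, the P450 widely used as the readout of CAR activity in mouse liver, was close to silent, at 0.350 TPM (0.0200 to 1.46). Neighbours in this order overlapped in their ranges except Cyp2c37 over Nr1i3 and Nr1i2 over Cyp2b10. TPM values share their total with mitochondrial RNA, so the comparisons between groups below use CPM, each count divided by its TMM-scaled library size and scaled to a common total.

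**Figure D1:**
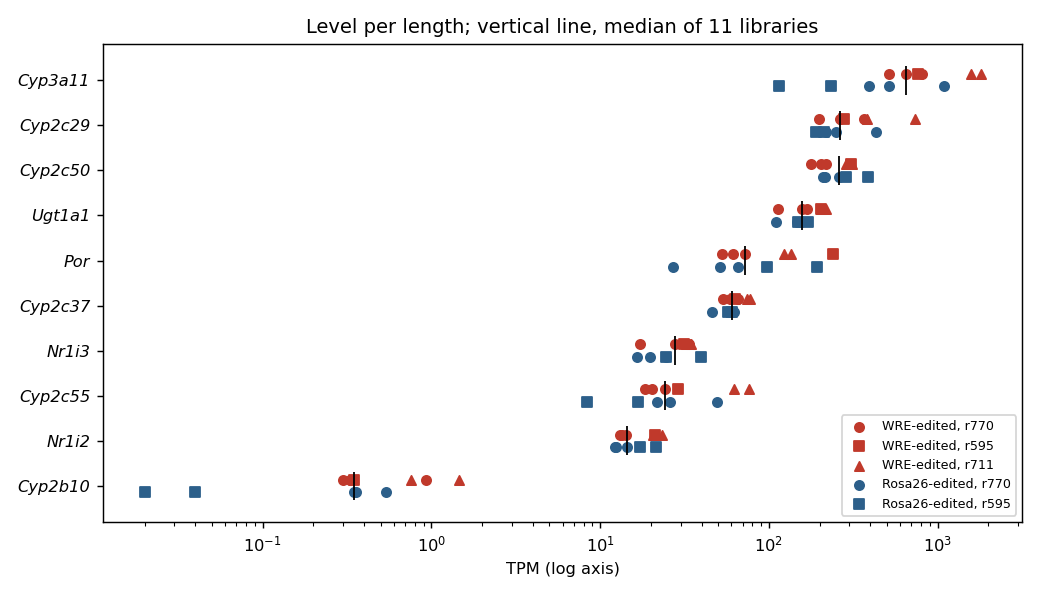
Deposited TPM of the 10 genes (log axis), WRE-edited libraries above Rosa26-edited ones for each gene, shapes marking the run and the vertical line the median of 11 libraries. Cyp3a11 has the highest median, 651 TPM, and Cyp2b10 the lowest, 0.350 TPM.

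The genes differed as much in how far they ranged. Between the lowest and the highest library the CPM of Cyp2b10 spanned 64.9-fold, that of Cyp3a11 17.4-fold and that of Cyp2c55 10.02-fold. Por and Cyp2c29 spanned 4.59-fold and 4.28-fold, and Nr1i3 2.40-fold. Nr1i2, Ugt1a1, Cyp2c37 and Cyp2c50 were the steadiest, from 1.85-fold down to 1.56-fold. For Cyp2b10, Cyp2c29, Cyp2c37, Cyp2c55 and Cyp3a11 the 2 lowest libraries were Rosa26-edited 4 and 5 of run r595. How many of all genes tested had the same 2 lowest libraries was not computed.

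WRE-edited hepatocytes were then compared with Rosa26-edited hepatocytes for each gene. None of the 10 genes passed an adjusted p of 0.05 with the run as a term (edgeR), where 0% of all genes tested were called higher and 0.00695% lower. DESeq2 called 0 of the 10 as well, with 0.111% of all genes called higher and 0.452% lower. At an unadjusted p under 0.05, Cyp2b10 and Por were higher, 2 of 10, against 4.95% of all genes, and 0 were lower, against 5.14%. That count was 0 without WRE-edited 6 and 5 without WRE-edited 1. The shares of all genes on leaving out these libraries were not computed, and the 4.95% does not stand for them. The log2 fold change was above 0 for 9 of 10 genes, against 51.7% of all genes, and the median was 0.31 over the 10 and 0.01 over all genes. The runs contributed unequally: the median of the 10 was 0.15 within r770 and 0.78 within r595.

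**Figure D2:**
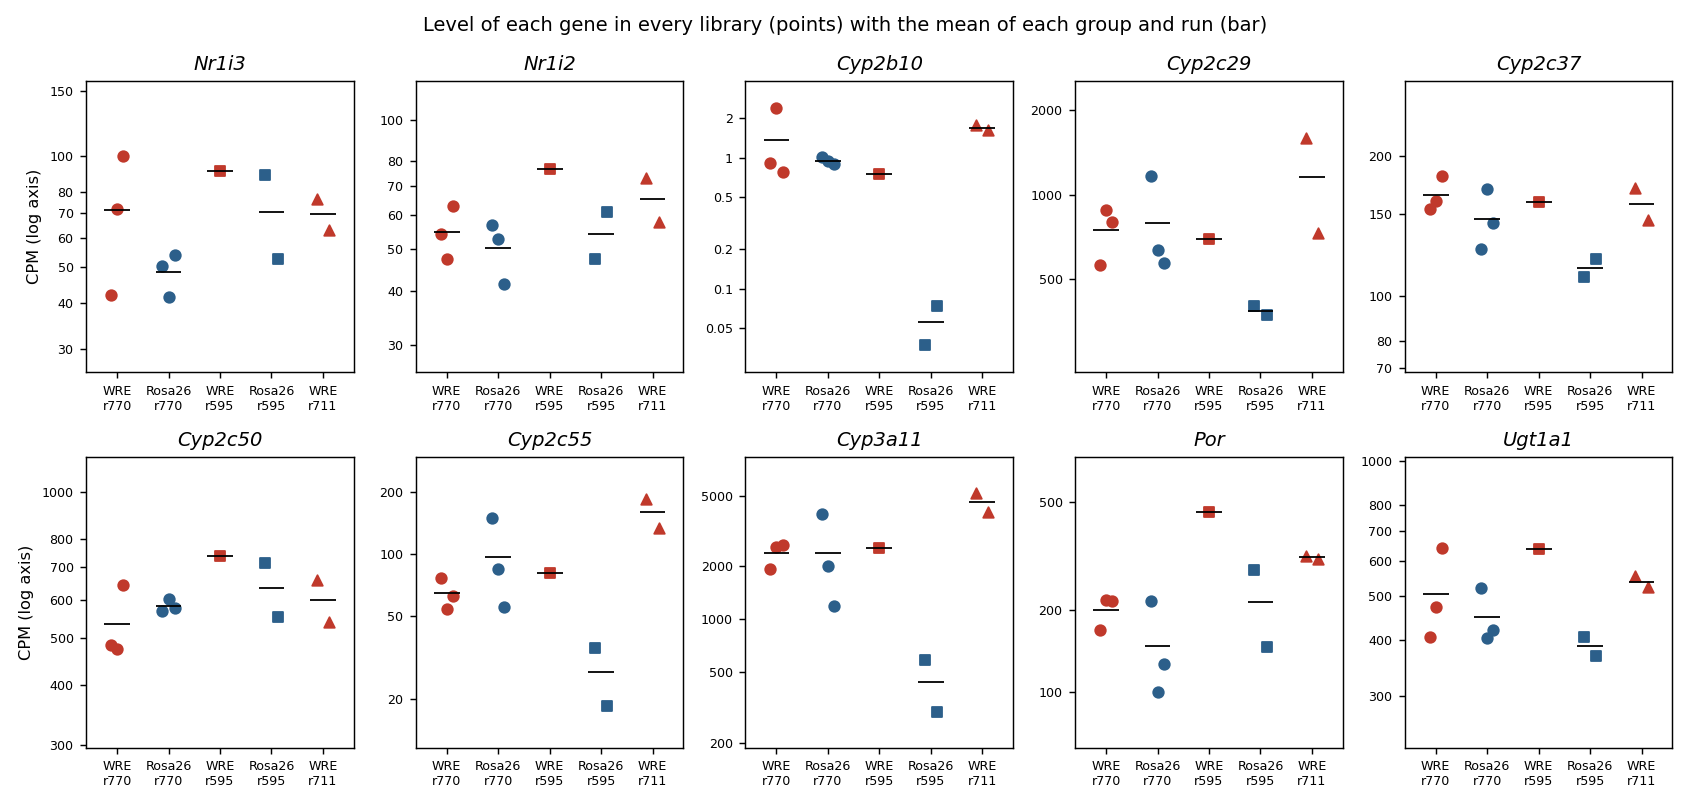
CPM of each gene (log axis) in every library, with WRE-edited libraries left of Rosa26-edited ones within r770 and r595, and the 2 WRE-edited libraries of r711 at the right; bars are means. In r595 the WRE-edited library lies above both Rosa26-edited ones for all 10 genes, while in r770 the groups overlap for all 10.

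The receptors came first. Nr1i3, the gene of CAR on chromosome 1 (171213934 to 171218845, GRCm38.p6), had 41.9, 72.1 and 99.8 CPM in WRE-edited libraries, against 50.3, 41.6 and 53.9 CPM in Rosa26-edited libraries of r770. Run r595 gave 91.2 CPM in the WRE-edited library, against 88.7 and 52.7 CPM in the Rosa26-edited ones, and in r711 76.7 and 62.9 CPM in WRE-edited libraries. The groups overlapped in r770, since WRE-edited 1 was lower than 2 of its 3 controls, and in r595 Rosa26-edited 4 nearly reached the WRE-edited library. Its log2 fold change was 0.50 ± 0.23 (SE; edgeR adjusted p = 0.496). Without WRE-edited 3 and 6, the libraries that stood apart, it was 0.23 and rested on r770. Nr1i3 overlaps Tomm40l in the annotation, and the handling of reads in the overlap is not stated.

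Nr1i2, the gene of PXR on chromosome 16 (38248349 to 38294849), varied less. It had 54.4, 47.5 and 62.9 CPM in WRE-edited libraries, against 57.0, 52.8 and 41.5 CPM in Rosa26-edited libraries of r770, which interleave. The r595 values were 76.8 CPM in the WRE-edited library, against 47.4 and 61.1 CPM in the Rosa26-edited ones, and in r711 73.2 and 57.9 CPM in WRE-edited libraries. Over all runs it averaged 62.1 ± 11.2 CPM (SD, n = 6) in WRE-edited hepatocytes and 52.0 ± 7.75 CPM (SD, n = 5) in Rosa26-edited hepatocytes. The fitted difference was 0.24 ± 0.15 on the log2 scale (SE; edgeR adjusted p = 0.580), equal to a fold of 1.18 with a 95% interval from 0.926 to 1.51.

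Cyp2b10 on chromosome 7 (25897658 to 25926624) rested on few reads. It had 25, 83 and 22 counts in WRE-edited libraries, against 34, 31 and 25 counts in Rosa26-edited libraries of r770. In r595 it had 17 counts in the WRE-edited library, against 1 and 2 counts in the Rosa26-edited ones, and WRE-edited 4 and 5 of r711 had 37 and 40 counts. In r770 this was 0.915, 2.40 and 0.771 CPM in WRE-edited libraries, against 1.01, 0.946 and 0.892 CPM in Rosa26-edited ones. In r595 it was 0.745 CPM in the WRE-edited library, against 0.0370 and 0.0734 CPM in the Rosa26-edited ones. The r770 groups overlapped, with WRE-edited 2 above and WRE-edited 3 below all 3 controls, and Rosa26-edited 4 and 5 stood apart from every other library. The log2 fold change with the run as a term was 1.18 ± 0.53 (SE; edgeR unadjusted p = 0.0432, adjusted p = 0.475). Without WRE-edited 2 the Cyp2b10 log2 fold change was 0.88 (edgeR unadjusted p = 0.178), and without WRE-edited 6 it was 0.53 and rested on r770. The unadjusted call was also lost on leaving out WRE-edited 4, WRE-edited 5, Rosa26-edited 3, Rosa26-edited 4 or Rosa26-edited 5.

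Within r595 the summed rates of Cyp2b10 gave a ratio of 13.5 (95% exact interval 3.90 to 71.8), which covers counting error between these libraries alone. The WRE-edited side of r595 is 1 library. The fitted log2 fold change there was 3.65 ± 0.90 (SE; edgeR adjusted p = 0.187), and within r770 it was 0.53 ± 0.45 (SE). The difference between the runs was 3.12 ± 1.02 (SE; edgeR unadjusted p = 0.0101, adjusted p = 0.550). Without WRE-edited 2 the r770 value turned to -0.17. Counts of the 5 Cyp2b genes summed, with the paralogue Cyp2b9 at 1.65 to 4.68 CPM in WRE-edited libraries and 1.22 to 12.7 CPM in Rosa26-edited libraries, had a log2 fold change of -0.995 ± 0.52 (SE), the opposite sign. The division of reads among these paralogues was not tested, so the value of Cyp2b10 is uncertain.

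Cyp3a11 on chromosome 5 (145854607 to 145879854) is the classical PXR target of mouse liver. It had 1937, 2575 and 2638 CPM in WRE-edited libraries, against 3938, 2008 and 1188 CPM in Rosa26-edited libraries of r770. In r595 it had 2523 CPM in the WRE-edited library, against 585 and 299 CPM in the Rosa26-edited ones, and in r711 5202 and 4048 CPM in WRE-edited libraries. The r770 WRE-edited libraries lay inside the range of their controls, and in r595 the WRE-edited library was several times above both. WRE-edited 6 was also inside the r770 range, while Rosa26-edited 4 and 5 were the lowest of the 11 libraries.

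The log2 fold change of Cyp3a11 with the run as a term was 0.84 ± 0.51 (SE; edgeR adjusted p = 0.581), a fold of 1.79 with a 95% interval from 0.776 to 4.12. Within r770 it was 0.00 ± 0.39 and within r595 2.51 ± 0.56 (SE; edgeR adjusted p = 0.179). DESeq2 called the r595 value (adjusted p = 0.00263), where it called 0.222% of all genes higher. Both r595 values set 1 WRE-edited library against 2 controls, with the spread taken from the other groups. The difference between runs was 2.51 ± 0.68 (SE; edgeR unadjusted p = 0.00390, adjusted p = 0.479), and DESeq2 gave it an adjusted p of 0.0793. Without Rosa26-edited 1, the high control of r770, the Cyp3a11 log2 fold change over both runs was 1.297 and the edgeR adjusted p 0.560. Without WRE-edited 6 it was 0.00, and without WRE-edited 3 and 6 it was -0.07, both resting on r770. The 9 Cyp3a genes summed had a log2 fold change of 0.75 ± 0.45 (SE). Cyp3a11 itself made up most of that sum, with 299 of 427 CPM in Rosa26-edited 5, so the shared sign is no separate check.

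Cyp2c55 on chromosome 19 (39006940 to 39042690), a P450 induced through both CAR and PXR, followed Cyp3a11. It had 77.2, 54.3 and 62.9 CPM in WRE-edited libraries, against 149, 84.9 and 55.4 CPM in Rosa26-edited libraries of r770. In r595 it had 80.9 CPM in the WRE-edited library, against 35.2 and 18.5 CPM in the Rosa26-edited ones, and in r711 185 and 133 CPM in WRE-edited libraries. The direction was therefore opposite in the 2 runs: the log2 fold change was -0.57 ± 0.34 within r770 and 1.59 ± 0.50 within r595 (SE). The difference was 2.16 ± 0.61 (SE; edgeR unadjusted p = 0.00478, adjusted p = 0.488). Over both runs it was 0.14 ± 0.44 (SE; edgeR adjusted p = 0.922), and it was -0.15 without Rosa26-edited 5.

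Cyp2c29 on chromosome 19 (39287044 to 39330713), a CYP2C enzyme inducible by phenobarbital, had 561, 882 and 798 CPM in WRE-edited libraries, against 1164, 636 and 569 CPM in Rosa26-edited libraries of r770. Run r595 showed 693 CPM in the WRE-edited library, against 399 and 372 CPM in the Rosa26-edited ones, and in r711 1593 and 729 CPM in WRE-edited libraries. The values interleaved in r770 and separated in r595. Its fitted log2 fold change was 0.22 ± 0.29 (SE; edgeR adjusted p = 0.795), from -0.08 within r770 and 0.85 within r595. Cyp2c29, Cyp2c38 and Cyp2c39, close paralogues, had 0.19 ± 0.28 (SE) when summed, and Cyp2c29 itself made up most of that sum.

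Cyp2c37 and Cyp2c50, neighbours on chromosome 19 (39992424 to 40012243 and 40089679 to 40113955) that encode CYP2C enzymes, were the steadiest P450 genes. Cyp2c37 averaged 162 ± 12.4 CPM (SD, n = 6) in WRE-edited hepatocytes and 134 ± 23.4 CPM (SD, n = 5) in Rosa26-edited hepatocytes. Its log2 fold change was 0.26 ± 0.13 (SE; edgeR adjusted p = 0.498), with 0.17 within r770 and 0.47 within r595, and WRE-edited 3 was the highest library at 181 CPM. Cyp2c50 averaged 589.6 ± 107 CPM (SD, n = 6) in WRE-edited hepatocytes and 602 ± 64.9 CPM (SD, n = 5) in Rosa26-edited hepatocytes. Its log2 fold change was -0.01 ± 0.14 (SE; edgeR adjusted p = 0.977), with a 95% interval of the fold from 0.782 to 1.25. It was -0.12 within r770 and 0.22 within r595, and the groups overlapped for both genes. Summed with their paralogue Cyp2c54 the log2 fold change was 0.07 ± 0.14 (SE).

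Por on chromosome 5 (135670040 to 135735326) encodes the reductase on which all microsomal P450 enzymes depend. It had 168.9, 218 and 216 CPM in WRE-edited libraries, against 217, 99.9 and 127 CPM in Rosa26-edited libraries of r770. Its r595 level was 459 CPM in the WRE-edited library, against 282 and 147 CPM in the Rosa26-edited ones, and in r711 317 and 309 CPM in WRE-edited libraries. WRE-edited 6 was the highest of the 11 libraries, and in r770 Rosa26-edited 1 was level with the 2 highest WRE-edited ones.

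The log2 fold change of Por was 0.65 ± 0.25 (SE; edgeR unadjusted p = 0.0217, adjusted p = 0.441), a fold of 1.57 with a 95% interval from 1.05 to 2.35. It was 0.44 within r770 and 1.10 within r595, and without WRE-edited 3 and 6 it was 0.39 and rested on r770. The unadjusted call was lost without WRE-edited 6 (edgeR unadjusted p = 0.160) and without Rosa26-edited 2 (edgeR unadjusted p = 0.0540). The effective length of Por was 1277 to 1291 bases in the r595 libraries and 1789 to 2062 bases in the others. With effective lengths as offsets its log2 fold change was 0.64. Por overlaps Gm16061 and Gm40345 in the annotation.

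Ugt1a1 on chromosome 1 (88211959 to 88220002) had 405, 472 and 640 CPM in WRE-edited libraries, against 521, 404 and 421 CPM in Rosa26-edited libraries of r770. Its r595 values were 637 CPM in the WRE-edited library, against 406 and 368 CPM in the Rosa26-edited ones, and in r711 554 and 524 CPM in WRE-edited libraries. The highest values were those of WRE-edited 3 and 6. Its fitted log2 fold change was 0.35 ± 0.16 (SE; edgeR adjusted p = 0.496), and without WRE-edited 3 and 6 it was -0.03 and rested on r770. Ugt1a1 shares its 3′ exons with 8 other annotated Ugt1a genes, and the 9 Ugt1a genes summed had 0.24 ± 0.16 (SE).

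**Figure D3:**
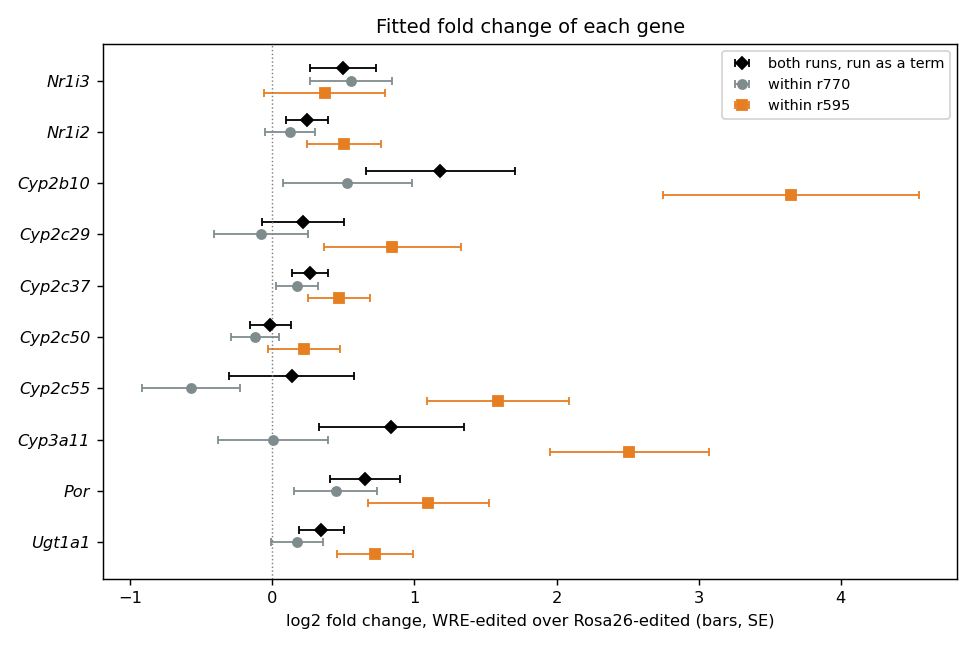
Log2 fold change of each gene, WRE-edited over Rosa26-edited, with both runs in the fit, within r770 and within r595; bars are SE. Cyp2b10, Cyp3a11 and Cyp2c55 lie at 3.65, 2.51 and 1.59 within r595, and at 0.53, 0.00 and -0.57 within r770.

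Read by run, the 10 genes gave different counts. Within r770, 0 of 10 passed an adjusted p of 0.05 (edgeR; 0% of all genes called in either direction), and 0 of 10 passed an unadjusted p of 0.05, against 1.73% of all genes higher and 2.49% lower. In 0 of 10 did every WRE-edited library of r770 lie above every Rosa26-edited one, as it did for 3.29% of all genes, and in 0 of 10 below, against 4.34%. DESeq2 called 0 of 10 within r770, against 0.0139% of all genes higher and 0.0278% lower. Within r595, 0 of 10 passed an adjusted p of 0.05 (edgeR; 0% of all genes called higher and 0.0139% lower). The WRE-edited side of r595 is 1 library, WRE-edited 6, which the fit assumes to vary like the other groups, so these calls compare that library with its 2 controls. By that fit 5 of 10 were higher at an unadjusted p under 0.05, namely Cyp2b10, Cyp2c55, Cyp3a11, Por and Ugt1a1, against 7.11% of all genes, and 0 were lower, against 8.16%. DESeq2 called 1 of 10 higher, Cyp3a11, and 0 lower, against 0.792% of all genes lower. The WRE-edited library of r595 lay above both Rosa26-edited ones in 10 of 10, against 40.4% of all genes. The effect was positive in both runs for 7 of 10, against 31.4% of all genes, and negative in both for 0, against 29.6%. The effect differed between runs by an adjusted p in 0 of 10 (edgeR; 0% of all genes in either direction) and by an unadjusted p in 3 of 10, all larger in r595, against 2.85% of all genes. None was smaller in r595, against 4.76% of all genes. DESeq2 called 0 of these differences, against 0.0139% of all genes larger and 0.0625% smaller.

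The levels within each group were then compared between runs, a contrast added after these values were seen. In Rosa26-edited hepatocytes r595 was lower than r770 for 3 of 10 genes (edgeR adjusted p under 0.05), where 6.89% of all genes were called lower and 3.31% higher. Cyp2b10 fell by 4.00 ± 0.75 on the log2 scale (SE; edgeR adjusted p = 0.00759), Cyp3a11 fell by 2.43 ± 0.48 (adjusted p = 0.0110) and Cyp2c55 fell by 1.84 ± 0.41 (adjusted p = 0.0201). Cyp2c29 had -1.03 ± 0.38 (edgeR adjusted p = 0.111). The count of 3 rests on few libraries: without Rosa26-edited 5 it was 1, Cyp2b10, with Cyp3a11 at -2.02 (edgeR adjusted p = 0.0851) and Cyp2c55 at -1.45 (adjusted p = 0.126). Cyp2b10 was lost without Rosa26-edited 4 (edgeR adjusted p = 0.0780) and Cyp2c55 without Rosa26-edited 2 (adjusted p = 0.0600), leaving 2 each time. In WRE-edited hepatocytes 0 of 10 were called, against 1.06% of all genes higher and 1.53% lower, with Cyp3a11 at 0.08, Cyp2c55 at 0.32 and Cyp2b10 at -0.88 on the log2 scale. Por had 1.19 ± 0.39 there (edgeR adjusted p = 0.134). The r595 side of these WRE-edited values is 1 library.

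Other measures of the 2 low controls were alike in part. In them 12 genes of electron transfer and haem synthesis summed to 3585 CPM in Rosa26-edited 4 and 3297 CPM in Rosa26-edited 5, the 2 lowest of the 11 libraries. They differed in 19 other P450 targets of CAR and PXR. These summed to 2339 CPM in Rosa26-edited 4, the highest of the 11 libraries, and 920 CPM in Rosa26-edited 5. So did 7 targets of AHR, the dioxin receptor, at 2314 CPM in Rosa26-edited 4 and 1029 CPM in Rosa26-edited 5. Acute phase genes and macrophage markers differed as well. Rosa26-edited 5, the lowest in Cyp3a11, had the highest summed level of 10 acute phase genes, 10672 CPM, and of 9 macrophage markers, 1168 CPM. Rosa26-edited 4, the next lowest, had 4497 CPM and 390 CPM, near the low end of the other libraries. WRE-edited 6 had 4584 CPM and 410 CPM for the same lists. Hepatocyte markers summed to 39846 to 52312 CPM in WRE-edited libraries and 41903 to 52357 CPM in Rosa26-edited libraries, and cholangiocyte markers to 0.809 to 3.95 CPM in WRE-edited libraries and 1.03 to 4.00 CPM in Rosa26-edited libraries. The part of these lists, of the share of mitochondrial RNA and of the run in the low values was not tested.

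Across all 11 libraries, 40 of the 45 pairs of genes had a positive Pearson correlation of log2 CPM (0.1 added). By permutation 4 pairs passed an adjusted p of 0.05 over the 45. The permutations ignored run and group, so shifts shared by a run or a group enter these p-values. By Spearman's rho 1 pair passed, Cyp2c29 and Cyp3a11. The shares of positive and of passing pairs among all genes tested were not computed, so these counts have no background. Cyp3a11 and Cyp2c55 correlated most closely, with r = 0.937 (permutation adjusted p = 0.00135) and Spearman's rho = 0.809 (permutation adjusted p = 0.0857). It was r = 0.849 without the 2 libraries farthest from the median of Cyp2c55, Rosa26-edited 5 and WRE-edited 4. Cyp2c29 and Cyp3a11 had r = 0.885 (permutation adjusted p = 0.00765), rho = 0.927 (permutation adjusted p = 0.00675) and r = 0.867 without the 2 farthest. Cyp2c29 and Cyp2c55 had r = 0.840 (permutation adjusted p = 0.0255), rho = 0.691 (permutation adjusted p = 0.124) and r = 0.675 without the 2 farthest. Cyp2b10 and Cyp3a11 had r = 0.876 (permutation adjusted p = 0.0255) and rho = 0.736 (permutation adjusted p = 0.0965). Without the 2 farthest by Cyp2b10, Rosa26-edited 4 and 5, r was 0.480, so that relation rests largely on them. Both pairs of Cyp2c29 lost the 2 farthest by Cyp2c29, WRE-edited 4 and Rosa26-edited 5. The pairs without Cyp2b10 thus kept Rosa26-edited 4, and their r without both low controls was not computed.

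Within the 6 libraries of r770 the pair Cyp2c29 and Cyp3a11 had r = 0.900 (exact permutation p = 0.0194, adjusted p = 0.744) and the pair Cyp2c55 and Cyp3a11 r = 0.646 (exact permutation p = 0.182). None of the 45 pairs passed there. With 6 libraries the smallest exact permutation p is 0.00139, so after adjustment over the 45 no pair could pass on its own. The other runs held too few libraries. Ranked by correlation with Cyp3a11 among 14392 other genes, Cyp2c55 came at 3, Cyp2c29 at 44 and Cyp2b10 at 55.

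For the CAR transcript the same measures were as follows. Nr1i3 and Cyp3a11 had r = 0.112 (permutation p = 0.745), Nr1i3 and Cyp2b10 r = -0.097 (permutation p = 0.766), and Nr1i3 came at 5880 in the ranking with Cyp3a11. Nr1i3 and Por had r = 0.735 (permutation p = 0.0113, adjusted p = 0.0637). Rosa26-edited 4 had 88.7 CPM of Nr1i3, the highest of the Rosa26-edited libraries, and 585 CPM of Cyp3a11, the second lowest of all libraries.

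**Figure D4:**
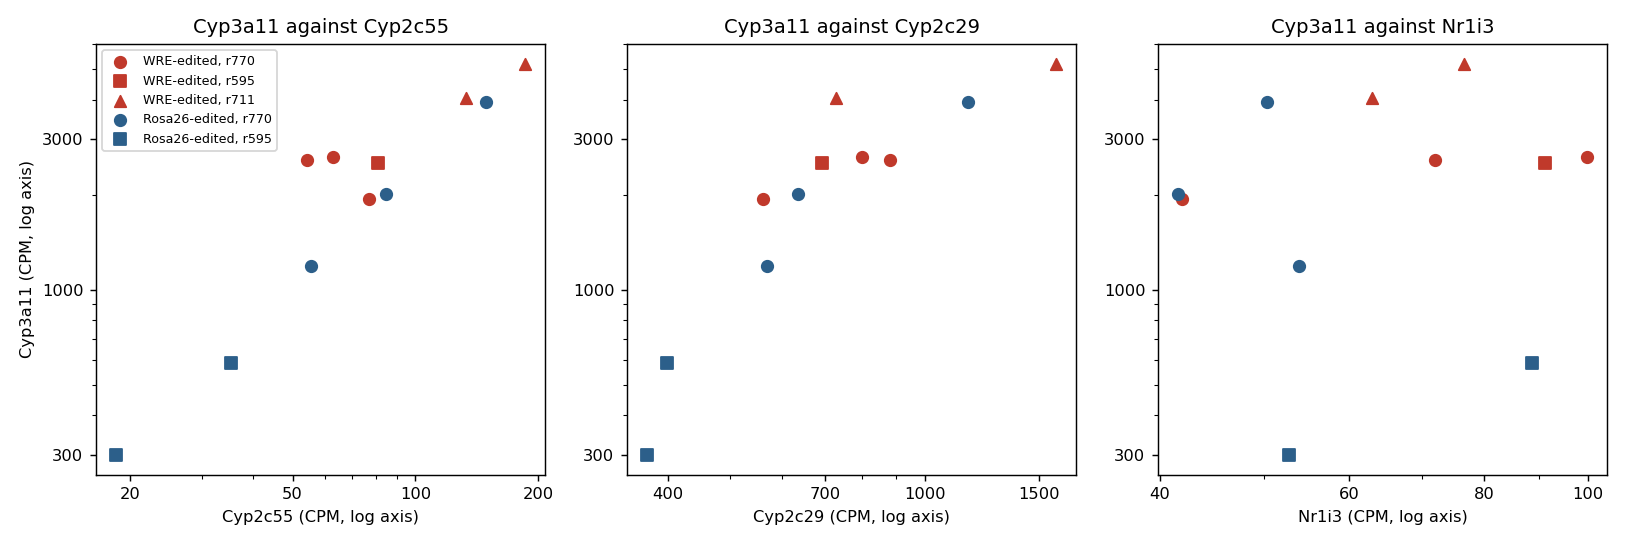
CPM of Cyp3a11 (vertical, log axis) against CPM of Cyp2c55, Cyp2c29 and Nr1i3 (horizontal, log axes), 1 point per library, colours for the group and shapes for the run. Pearson's r on log2 CPM is 0.937 for Cyp2c55, 0.885 for Cyp2c29 and 0.112 for Nr1i3.

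The rest of the pathway was read from lists of textbook members. No gene of the following lists passed an adjusted p of 0.05 (edgeR), and counts are at an unadjusted p under 0.05, where 4.95% of all genes were higher and 5.14% lower. Of 12 other P450 targets tested, 2 were higher and 1 lower, and the median log2 fold change was 0.01. The higher ones were Cyp3a25 (0.68) and Cyp3a59 (0.60), members of the CYP3A family, and the lower one was Cyp3a41a (-1.04), a CYP3A gene that is more abundant in female liver. Of 22 genes of conjugation and transport, 0 were higher and 1 lower, with a median of -0.03. The lower one was Slco1b2 (-0.53), a hepatic uptake transporter, while Gstm1, a glutathione transferase, had 0.39 and Sult1d1, a sulfotransferase, -0.50.

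Of 12 further genes induced by CAR or PXR, 2 were higher and 0 lower, with a median log2 fold change of 0.24. They were Ces2a (0.71), a carboxylesterase, and Fmo5 (0.29), a flavin-containing monooxygenase. Ces2a was 1.71 within r595 and 0.24 within r770, and Alas1, the first enzyme of haem synthesis, was 0.94 and 0.13. Of 24 partners and regulators of the receptors, 4 were higher and 0 lower, with a median of 0.16. These were Foxa2 (0.80), Rxra (0.50), Cebpa (0.45) and Hnf4a (0.32). Rxra encodes the dimer partner of both receptors, and the others are hepatocyte transcription factors. Foxa2 was 0.68 within r770 and 1.04 within r595. Of 12 genes of electron transfer and haem synthesis, 0 were higher or lower, with a median of 0.12. Of 4 targets of AHR, the dioxin receptor, 0 were higher or lower, with a median of 0.06, Cyp1a2 being 0.35 and Tiparp -0.52.

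Markers outside the pathway are given for the same contrast. Of 9 stellate cell and fibroblast markers, 0 were higher and 3 lower, and all 9 had negative log2 fold changes, with a median of -0.62. Their sums were 44.0 to 111 CPM in WRE-edited libraries and 78.2 to 111 CPM in Rosa26-edited libraries. Of 9 macrophage markers 0 passed in either direction and 0 had a positive log2 fold change, with a median of -0.44. The same held for 8 endothelial markers (median -0.22), 4 neutrophil markers (median -0.88) and 2 lymphocyte markers (median -0.79). The 1 cholangiocyte marker tested was higher (0.92). Of 5 erythroid genes 1 was higher and 3 lower, with a median of -1.66, Hba-a1 and Hbb-bs, which encode globins, being -2.44 and -1.66. Of 8 genes typical of female liver, 1 was higher and 1 lower, and of 11 typical of male liver, 1 was higher and 1 lower. Of 15 pericentral and β-catenin target genes, 2 were higher, Tbx3 (0.86) and Sp5 (0.72), both transcription factors, and 0 lower, with a median of 0.24. The summed level of these 15 was 26637 CPM in WRE-edited 3 and 29341 CPM in WRE-edited 6, the libraries low in Y-linked genes and highest in Ugt1a1, and 18373 to 22836 CPM in the other 9. The part of these differences in the values of the 10 genes was not tested.

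**Figure D5:**
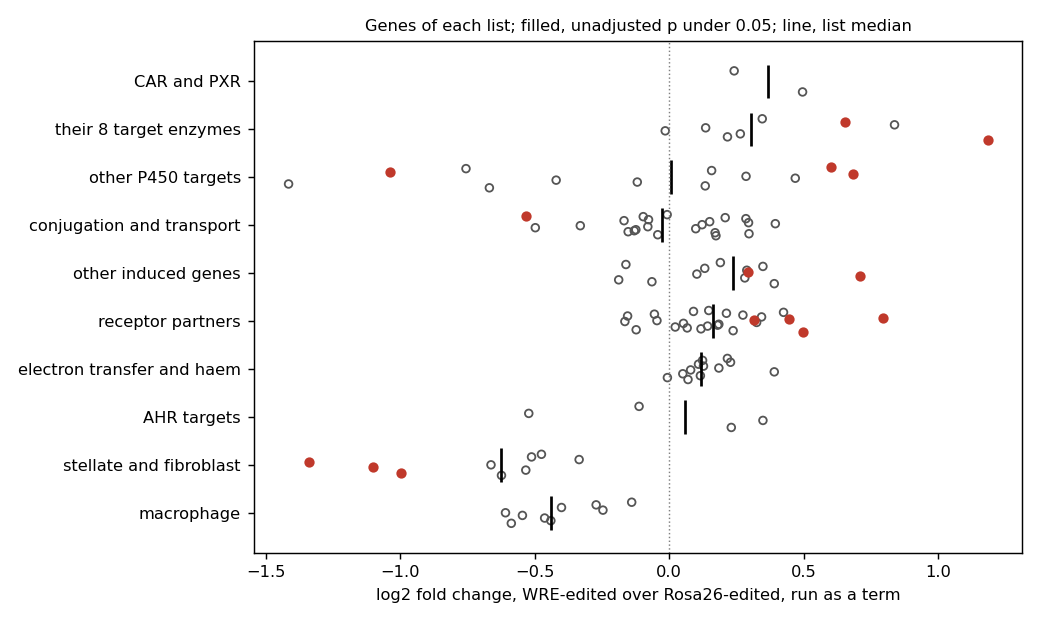
Log2 fold change of every tested gene of each list, WRE-edited over Rosa26-edited, fitted with a run term; filled points had an unadjusted p under 0.05 and vertical lines are list medians. The 8 target enzymes and the 2 receptors have medians of 0.31 and 0.37, and the stellate cell and fibroblast markers -0.62.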

How the data were processed

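RNA-seq values were the deposited expected counts per Ensembl gene, with TPM and other values (effective lengths in bases) per the file headers. Per the submitters' processing notes, the tools were STAR 2.7.6a and RSEM 1.3.1, and the build was GRCm38. No source states the annotation version or the strand setting. The deposited matrix of normalized signal, whose scaling is not stated, was used as an alternative alone. The miRNA-seq files were not used.

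Expected counts were rounded and tested in R 4.3.3 with edgeR 4.0.16: filterByExpr by group (minimum count 10, minimum total 15), TMM, a robust quasi-likelihood fit and Benjamini-Hochberg adjustment over 14393 genes, two-sided, threshold 0.05. The main design held run and group (7 residual degrees of freedom), so that WRE-edited libraries of r711 informed the spread alone. A nested design (6 residual degrees of freedom) gave each run's effect and their difference. DESeq2 1.42.0 and limma 3.58.1 were alternatives. Of 55536 identifiers, 55450 matched a symbol. Correlations used 100000 permutations, or all orders for 6 libraries. The fits were run on data simulated without differences between runs. That test does not cover such differences, and its outcome is not given here. The 10 genes and the lists were chosen with earlier results of these data known. All 10 genes are named, and of each other list up to 3 genes by smallest p.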

Additional observations from a re-analysis of the deposited data

Results flagged for a closer look

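Among 20 groups of libraries, each gene in each group, 2 held a library whose gap to its nearest neighbour was large for the range of the group, where chance gives about 1 in 20. Nr1i3 was at 88.7 CPM in Rosa26-edited 4, while the other Rosa26-edited libraries were at 41.6 to 53.9 CPM. Cyp2c29 was at 1593 CPM in WRE-edited 4, while the other WRE-edited libraries were at 561 to 882 CPM.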

How the results depend on the processing

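The count of the 10 genes past an adjusted p of 0.05 was 0 under every alternative of edgeR, DESeq2 and limma except 2. Without a filter on low counts it was 2 over both runs (Cyp3a11 and Por), 4 within r595 and 2 for the difference between runs, and DESeq2 gave 1 within r595. With no filter Cyp3a11 had a log2 fold change of 0.84 ± 0.18 (SE) over both runs, against 0.84 ± 0.51 in the main fit. Por had 0.65 ± 0.16, against 0.65 ± 0.25, so the estimates held while the SE shrank. The share of all genes called with no filter was not computed, and the cause of these differences was not tested. At an unadjusted p, 2 genes over both runs became 5 with no filter or DESeq2, 1 with the stricter filter (minimum count 50), effective lengths as offsets, the deposited matrix, the block without the run term or without the r711 libraries, and 0 with r770 alone, WRE-edited 4 and 6 summed, the block with the run term or without WRE-edited 3 and 6. Leaving out 1 library gave 0 (without WRE-edited 6) to 5 (without WRE-edited 1), with 4 without Rosa26-edited 1. It gave 1 on leaving out WRE-edited 4, WRE-edited 5, Rosa26-edited 3 or Rosa26-edited 5, and 2 for the rest. Shares of all genes under these alternatives were not computed, for these counts or for those that follow. The count within r770 was 3 with no filter and 0 to 1 leaving out a library, within r595 3 (without Rosa26-edited 5) to 6, and for the difference 4 with no filter, 2 with the stricter filter and 3 to 4 leaving out a library.

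Replicate numbers did not pair the libraries (r of same-numbered deviations in r770 0.087, -0.246 and -0.097). With the replicate block and run term Cyp2c29 was -0.021, Cyp2c55 -0.474, Cyp2c29 with its paralogues -0.030 and Cyp2c37 with its paralogues -0.042. Without the run term the last was -0.029, and it was -0.0067 with WRE-edited 4 and 6 summed. In r770 alone these 4 were -0.067, -0.564, -0.076 and -0.017. Without WRE-edited 3 and 6, chosen after seeing the data, they were -0.128, -0.556, -0.129 and -0.186. Cyp3a11 was then -0.074, the Cyp3a sum -0.061, Ugt1a1 -0.032 and the Ugt1a sum -0.074. All these values rested on r770, since r595 then held no WRE-edited library. Within r770 Cyp3a11 was -0.0055 with the stricter filter and -0.0087 with effective lengths.

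Leaving out 1 library moved log2 fold changes that turned sign as follows: Cyp2c29 -0.081 to 0.51, Cyp2c50 -0.12 to 0.052, Cyp2c55 -0.57 to 0.51, Cyp2c29 with paralogues -0.089 to 0.47 and Cyp2c37 with paralogues -0.029 to 0.14. Within r770 the ranges were -0.17 to 0.81 for Cyp2b10, -0.26 to 0.31 for Cyp2c29, -0.31 to 0.58 for Cyp3a11 and -0.032 to 0.31 for Ugt1a1, and the difference between runs of Nr1i3 was -0.53 to 0.23. Without WRE-edited 6 no r595 value could be fitted. Cyp2b10 had no value under the stricter filter. Depth limits Cyp2b10, with 1 and 2 counts in the r595 controls, more than the other 9 genes.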
